A study of Mus musculus with 6 samples.

Results

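The genes for the cytoplasmic ribosomal proteins were followed in sorted hindbrain cells of mouse embryos at E10.5. They were taken by symbol: names made of Rpl or Rps and a number, Rplp0 to Rplp2 and Rpsa, without the Rps6k kinases and without pseudogene names. The rule found 50 of the 18193 genes that had a probe set with a single symbol, and these 50 genes had 106 probe sets. For a gene with several probe sets, the brightest on average stands for it here. By name, 22 of the 50 encode proteins of the large ribosomal subunit and 21 proteins of the small subunit. A further 6 (Rpl3l, Rpl7l1, Rpl22l1, Rpl39l, Rps4l and Rps27l) are duplicates or relatives of a ribosomal protein gene. Rps19bp1, which the symbol rule also takes, encodes a protein that binds Rps19 and is not part of the ribosome. Another 31 ribosomal protein symbols, Rpl3, Rpl5, Rpl10, Rpl24 and Rplp1 among them, occurred only in probe sets shared with pseudogenes or other genes, so they had no value of their own.

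All cells came from the Hoxb1 locus reporter: the sort took fluorescent cells from dissected hindbrains, pooled over whole litters. In the control group, Hoxb1-IRES-tauGFP (3 arrays), the locus made the normal Hox-B1 protein and the reporter tauGFP. In the swap group, labelled Hoxb1>A1-IRES-tauGFP (3 arrays), the same tagged locus made a paralogous Hox protein in place of Hox-B1. Both groups therefore carry the reporter allele, and the arrays hold no embryo without it. Rhombomere 4, the labelled tissue, is the segment of the hindbrain where facial motor neurons arise.

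Each ribosome carries a single copy of most of its proteins, so cells make these proteins in matched amounts. Their mRNAs are short and abundant, and most begin with a C and a run of pyrimidines, the 5′ terminal oligopyrimidine (TOP) motif, through which mTOR signalling and the RNA-binding protein Larp1 control their translation. Loss of single ribosomal protein genes in mice gives particular phenotypes: Rpl38 is known for its part in the translation of Hox mRNAs in the embryo's axial skeleton, and Rps19 and Rps20 for pigmentation.

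The starts of these genes are shown because the TOP motif is what ties the family together. RefSeq (GRCm38.p6) held promoter entries for 44 of the 50 genes. In 8 of the 44 (18.2%) an annotated start was a C followed by at least 4 C or T on the sense strand, against 2.67% of 17492 protein-coding genes. These 8 starts are printed from 10 bases before the start to 20 bases from it, with the tract in capitals from the annotated start onwards.
Rpl14 (chr9:120571507-120571536, plus strand): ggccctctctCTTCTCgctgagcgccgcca
Rpl35 (chr2:39005112-39005141, minus strand): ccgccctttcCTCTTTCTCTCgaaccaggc
Rpl38 (chr11:114668570-114668599, plus strand): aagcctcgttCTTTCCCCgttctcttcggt
Rplp2 (chr7:141447641-141447670, plus strand): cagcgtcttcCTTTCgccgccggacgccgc
Rps6 (chr4:86857348-86857377, minus strand): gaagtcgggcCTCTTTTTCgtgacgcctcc
Rps10 (chr17:27635225-27635254, minus strand): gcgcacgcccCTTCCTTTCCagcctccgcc
Rps18 (chr17:33955646-33955675, minus strand): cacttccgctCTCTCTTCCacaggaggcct
Rps27 (chr3:90213629-90213658, minus strand): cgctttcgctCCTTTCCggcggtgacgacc

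An annotated start can lie a few bases from the one a cell uses, so longer tracts near the start were also counted. A run of at least 8 C or T within the same 30 bases was present in 17 of 44 genes (38.6%), against 13.1% of all genes. Of these, 3 with a long tract that the strict rule missed, and the start of Rpl3l, a gene known from striated muscle, are shown for comparison, with the longest tract in capitals.
Rpl7a (chr2:26910797-26910826, plus strand): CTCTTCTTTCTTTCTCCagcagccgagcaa
Rpl13a (chr7:45128726-45128755, minus strand): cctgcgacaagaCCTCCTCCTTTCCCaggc
Rpl27a (chr7:109519185-109519214, plus strand): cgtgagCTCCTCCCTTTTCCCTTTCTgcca
Rpl3l (chr17:24727816-24727845, plus strand): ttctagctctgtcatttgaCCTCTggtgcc

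Over the whole 300 bases (250 before the start and 50 from it), the letters CGGAAG, the core of sites for ETS-family factors, occurred on either strand in 31 of 44 genes (70.5%) and in 23.5% of all genes. GCCATNTT, letters of sites for the factor YY1, occurred in 7 of 44 (15.9%, against 7.46%), and TATAAA in 6 of 44 (13.6%, against 14.8%), both strands counted. The median GC content of these regions was 56.5% for the 44 genes and 56.3% for all genes. These patterns were chosen after the sequences had been looked at, and a match describes the letters only. The 8 genes with a tract at the annotated start had log2 differences between the genotypes from -0.36 to 0.09 (median -0.11), and the other 36 from -0.43 to 0.34 (median -0.04), so the ranges overlap. No test was made of that split.

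Hoxb1 itself was at 12.67, 12.68 and 12.55 in the control and 12.54, 12.06 and 11.78 in the swap arrays, which did not overlap. Its difference of -0.51 (SE 0.27) did not pass limma's test (adjusted p = 1.00), and which part of the transcript its probes read was not known, so it does not check the labels. Array medians were 118, 130 and 139 intensity units in the control and 118, 122 and 139 in the swap arrays, in the order 1, 2, 3. The leading principal component, with 32.3% of the variance, had its highest scores on control array 1 (48.6) and swap array 1 (34.6), and its other scores ran from -30.1 to 0.486. Isl1 and Tbx20, transcription factors of facial motor neurons, stood between 13.27 and 14.03 on every array, with swap means higher by 0.13 and 0.19. The other 3 measured genes of that list besides Hoxb1 had lower swap means: Phox2a differed by -0.50 (SE 0.31), Gata2 by -0.79 (SE 0.46) and Gata3 by -0.42 (SE 0.25). Gata2 and Gata3 did not overlap between the groups. With Hoxb1 that is 3 of 6 genes, all lower in the swap arrays, against 4.55% of all genes. The median of the 6 genes was -0.46, and 0 of 6 passed limma's test or had an unadjusted p under 0.05. The 8 macrophage markers summed to 472 to 17066 intensity units in the control and 2354 to 4463 in the swap arrays. The 7 measured erythroid markers summed to 20666 to 33188 and 15413 to 31193 units, and the 8 mesenchymal markers to 4871 to 9746 and 4813 to 7644 units. Of these markers 7 of 7 erythroid, 7 of 8 mesenchymal and 3 of 8 macrophage genes were lower in the swap arrays. The 6 endothelial markers were all higher there and all below the median level. Their sum was 280, 348 and 499.8 units in the control and 527, 539.9 and 526 in the swap arrays, without overlap. Taken singly, 1 of these 6 genes did not overlap, against 8.85% of all genes. Among the erythroid genes it was 1 of 7, Hba-a1, and among the macrophage and mesenchymal genes 0 of 8 each. Hba-a1, below the median level with a mean of 4.93, differed by -1.58 (SE 0.35). Its unadjusted p from limma was 0.0047 and its adjusted p 0.77. No marker was at 0, and the part of such cells in the values below was not tested. In these pooled sorts, fewer cells of a type and less RNA per cell cannot be told apart.

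Ribosomal protein probe sets were among the brightest of the arrays in both genotypes. The mean log2 intensity was at least 12 for 37 of the 50 genes (74%), against 6.83% of all genes. At or above the median level of all probe sets (6.83 on the log2 scale) were 47 of 50, against 11167 of all 18193 genes. Single array values ran from 0.75 for Rps16 to 14.91 for Rpl13a, and the brightest value of any probe set was 15.21. Brightness depends on the probes as well as on the mRNA, so these intensities give no order of abundance between genes. The 3 genes below the median level were Rps16 and Rps27, of the small subunit, and Rpl3l.

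**Figure D1:**
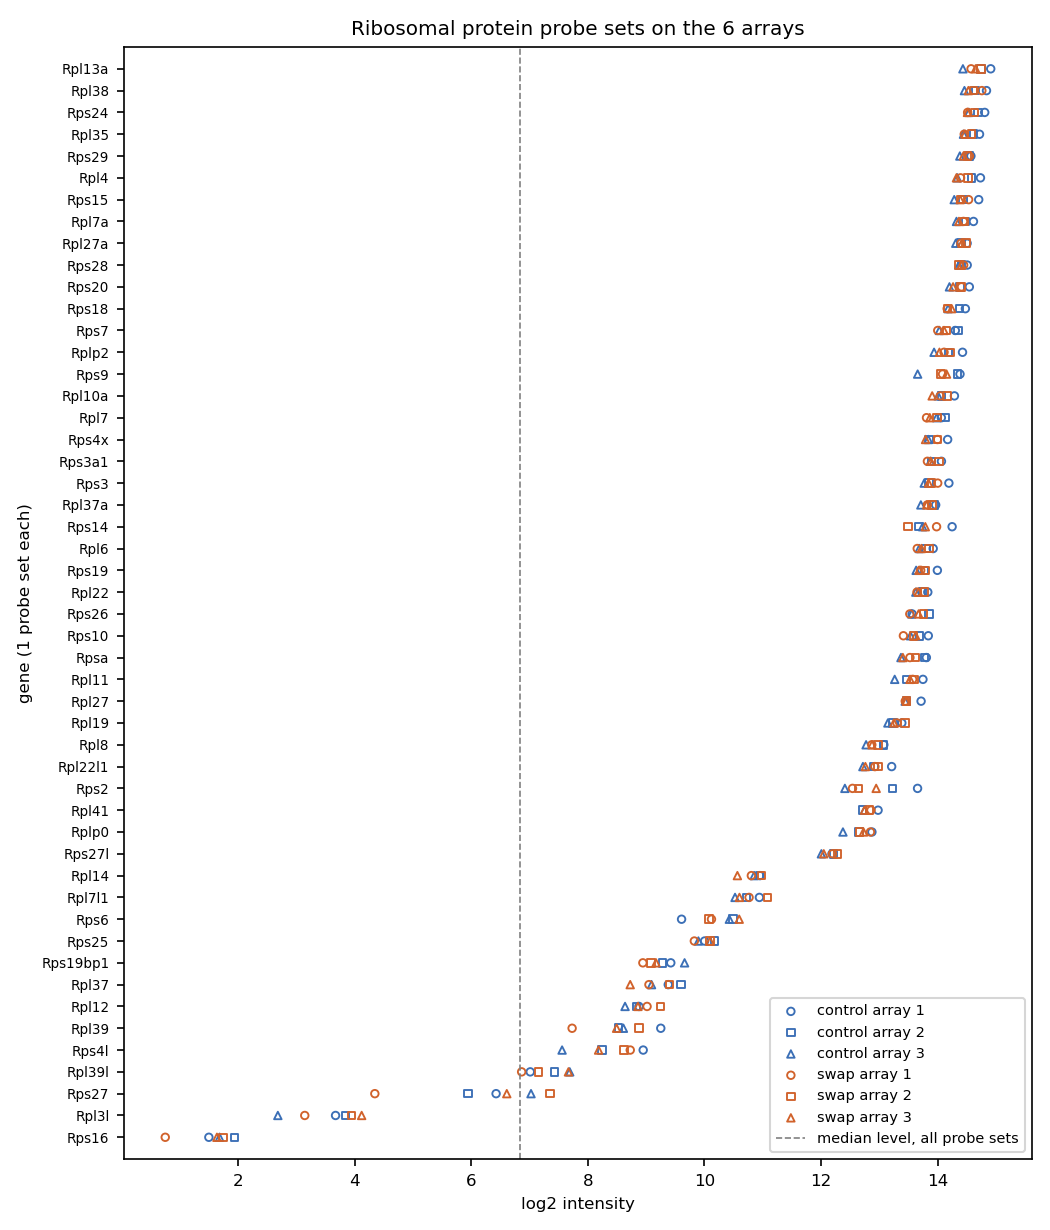
Log2 intensity (x axis) of the chosen probe set of each of the 50 genes (y axis, ordered by mean) on the 3 control arrays (blue) and 3 swap arrays (orange), with the median level of all probe sets as a dashed line. For 37 genes the mean is at least 12, and in each of them the values of the genotypes overlap, with Rps2 spread from 12.41 to 13.66. Different probe sets are not a scale of abundance between genes.

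No ribosomal protein gene differed between the genotypes by limma's test. At an adjusted p under 0.05 limma called 0 of 50 genes, against 0 of 45037 probe sets (0%). At an unadjusted p under 0.05 it gave 0 of 50, against 3.63% of all genes. Of the brightest 1820 genes (mean log2 of 11.48 or more) 6 had such a p. The smallest unadjusted p of the 50 from limma was 0.133. All 3 swap arrays lay above the control arrays for 0 of 50 genes (4.3% of all genes) and below them for 1 (4.55% of all genes), which was Rps19bp1. In either direction that is 1 of 50, against 8.85% of all genes and 6.04% of the brightest 1820. Smaller groups overlap less often, so left-out arrays need their own background. Without control array 3, 15 of 50 genes (30%) did not overlap, against 18% of all genes and 13.7% of the brightest 1820 in either direction. All 15 were lower in the swap arrays, against 8.81% of all genes and 8.35% of the brightest 1820 in that direction. With any other single array left out the count in either direction was 1 to 6 of 50 (2% to 12%). The shares were then 16.8% to 20.4% of all genes and 11.4% to 18.2% of the brightest 1820.

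For 44 of 50 genes the difference had a 95% interval within 2-fold, against 43.4% of all genes and 95.7% of the brightest 1820 genes (mean log2 of 11.48 or more). It lay within 1.5-fold for 16 of 50, against 5.22% and 29%. That second count moved from 0 to 40 with the variance prior, the offset or the arrays used. Genes whose interval went beyond 2-fold were Rps2, Rps16, Rps27, Rpl39, Rpl3l and Rps4l. Among the 37 genes with a mean of at least 12, differences ran from -0.39 to 0.11, and without Rps2 from -0.17 to 0.11, with SEs from 0.20 to 0.38.

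**Figure D2:**
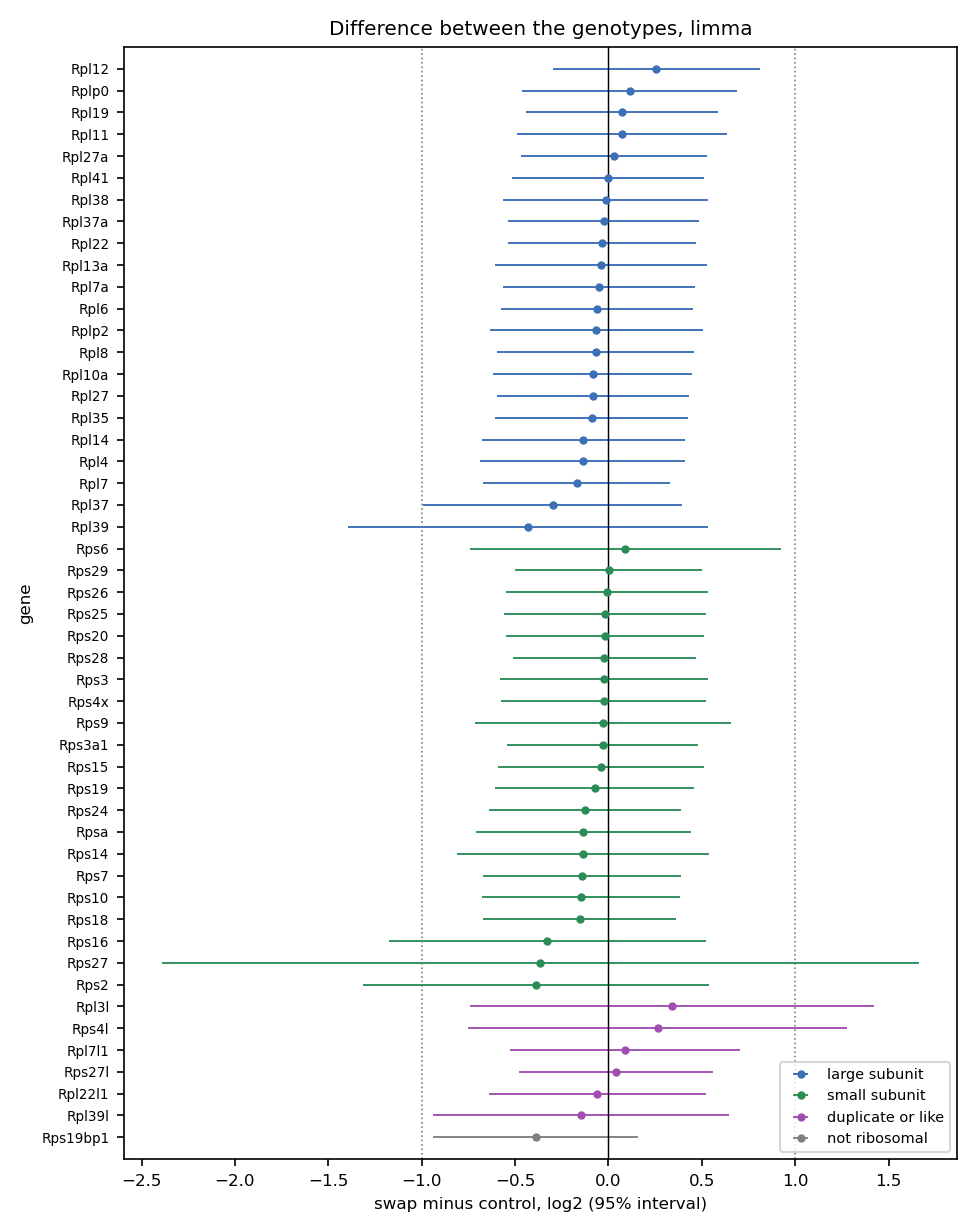
Swap minus control on the log2 scale (x axis) with 95% intervals from limma for each of the 50 genes (y axis), coloured by class, with dotted lines at 2-fold. Every interval includes 0, and 44 of 50 lie between the dotted lines.

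The large subunit genes are given first, with arrays always in the order 1, 2, 3. Rpl38, the protein tied to Hox mRNA translation, was at 14.84, 14.65 and 14.46 in the control and 14.76, 14.62 and 14.53 in the swap arrays. All 3 swap values lay inside the control range. The genotypes differed by -0.01 (SE 0.22), with a 95% interval from -0.56 to 0.53 and an adjusted p of 1.00 from limma. Leaving out control array 1 turned it to 0.08.

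Rplp0 and Rplp2 belong to the stalk, the arm of the large subunit to which the translation factors bind. Rplp2 was at 14.43, 14.19 and 13.94 in the control and 14.11, 14.22 and 14.03 in the swap arrays. Rplp0 was at 12.87, 12.65 and 12.38 in the control and 12.85, 12.66 and 12.73 in the swap arrays. For both genes the swap arrays lay within the control range, with differences of -0.06 (SE 0.23) and 0.11 (SE 0.23). Rpl12, which sits at the base of the stalk, had the smallest p of the genes with higher swap means, at 8.88, 8.84 and 8.64 against 9.02, 9.25 and 8.86. Its swap array 3 lay below control array 1, so the groups overlapped, and the difference of 0.26 (SE 0.22) did not pass the test.

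Rpl11, which can bind the p53 regulator Mdm2 outside the ribosome, was at 13.75, 13.47 and 13.26 in the control and 13.57, 13.60 and 13.53 in the swap arrays, a difference of 0.07 (SE 0.23). Rpl13a, known also from translational silencing in inflammation, was at 14.91, 14.74 and 14.43 against 14.58, 14.74 and 14.65 (difference -0.04, SE 0.23). In each, swap values fell within the control spread. Rpl41, an unusually short basic peptide, had a difference of -0.0022 (SE 0.21), and its 4 probe sets gave -0.15 to 0.19. Rpl19, which had the fifth smallest p of the genes with higher swap means, differed by 0.07 (SE 0.21).

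The largest spread in the large subunit was that of Rpl39, a small protein at the tunnel through which the new chain leaves. It was at 9.25, 8.53 and 8.61 in the control arrays and 7.73, 8.88 and 8.49 in the swap arrays. Swap array 1 was the lowest of the 6, swap array 2 lay within the control range and swap array 3 just below it. The difference of -0.43 (SE 0.39) was -0.11 without swap array 1 and 0.11 without both replicate 1 arrays. Rpl37, a zinc-binding protein of the large subunit, was at 9.38, 9.60 and 9.09 against 9.05, 9.40 and 8.73, a difference of -0.30 (SE 0.28) that was -0.13 without swap array 3. Over all 22 large subunit genes the median difference was -0.06, with 5 higher and 17 lower in the swap arrays.

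Of the 21 small subunit genes 2 were higher and 19 lower, with a median difference of -0.04. Rps6, the protein phosphorylated by kinases downstream of mTOR, was at 9.61, 10.49 and 10.43 in the control and 10.12, 10.08 and 10.60 in the swap arrays. Its lowest value was in control array 1, where most other ribosomal protein genes were highest, and without that array its difference turned from 0.09 (SE 0.34) to -0.19. Rps19, the protein first linked to Diamond-Blackfan anaemia, was at 14.00, 13.78 and 13.63 against 13.71, 13.79 and 13.68, a difference of -0.07 (SE 0.22) with all swap values inside the control range.

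Rpsa, a small subunit protein also described as a laminin receptor, was at 13.81, 13.78 and 13.37 in the control and 13.53, 13.62 and 13.40 in the swap arrays (difference -0.13, SE 0.23). Rps4x, from the X chromosome, had a difference of -0.03 (SE 0.22), Rps7 of -0.14 (SE 0.21) and Rps20 of -0.02 (SE 0.21). None of the 4 had groups that stood apart. Rps2, near the entry of the mRNA channel, was at 13.66, 13.23 and 12.41 in the control and 12.54, 12.65 and 12.95 in the swap arrays. The 3 control arrays spanned more than the swap arrays, which lay within them, and the difference of -0.39 (SE 0.38) was -0.11 without control array 1 and -0.73 without control array 3.

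For the dim small subunit probe sets a single array could set the value. Rps27 was at 6.43, 5.95 and 7.03 in the control and 4.35, 7.35 and 6.61 in the swap arrays. Its single low value, in swap array 1, set the sign: the difference of -0.36 (SE 0.82) was 0.51 without that array. Rps16 was at 1.498, 1.94 and 1.68 against 0.75, 1.75 and 1.64 (difference -0.33, SE 0.34), and -0.01 without swap array 1. A level this low was read for Rps16 from 1 probe set, and the other probe sets that list Rps16 also list pseudogenes and were not used.

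Duplicates and relatives of the ribosomal protein genes had a median difference of 0.06, with 4 of 6 higher and 2 lower. Rpl22l1, a duplicate that can stand in for Rpl22, was at 13.21, 12.91 and 12.72 in the control and 12.92, 12.98 and 12.76 in the swap arrays, a difference of -0.06 (SE 0.23), and Rpl22 itself differed by -0.04 (SE 0.20). Rps27l, a p53-responsive duplicate, differed by 0.04 (SE 0.21). Rpl7l1, a relative of Rpl7, differed by 0.09 (SE 0.25). In these 4 genes both genotypes overlapped.

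Rpl39l, a duplicate known from testis, was at 7.01, 7.43 and 7.69 in the control and 6.86, 7.16 and 7.67 in the swap arrays (difference -0.15, SE 0.32). Rpl3l was at 3.67, 3.84 and 2.68 against 3.14, 3.95 and 4.12 (difference 0.34, SE 0.44), and -0.02 without control array 3. Rps4l, a relative of Rps4x, differed by 0.26 (SE 0.41), and by -0.08 without control array 3. Its control arrays ranged from 7.56 to 8.95 and held all 3 swap values. Rps19bp1 was at 9.42, 9.28 and 9.66 in the control and 8.94, 9.09 and 9.17 in the swap arrays. On the chosen probe sets it was the single gene of the 50 whose groups did not overlap. It differed by -0.39 (SE 0.22) with a 95% interval from -0.94 to 0.16 and an adjusted p of 1.00 from limma. Rpl27 overlapped on its chosen probe set. A dimmer probe set of Rpl27 did not, at 13.35, 13.19 and 13.15 in the control and 13.10, 13.11 and 13.06 in the swap arrays.

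Most ribosomal protein genes shared a profile over the arrays that crossed the genotypes. Of the 50 genes 34 were highest on control array 1, and 27 were lowest on control array 3, whereas over all genes these arrays held 17.5% of the highest and 15% of the lowest values. In the brightest 1820 genes the shares were 29.6% and 23.4%. The median deviation of the 50 genes from their own means was 0.17 on control array 1, 0.03 on control array 2 and -0.12 on control array 3. On swap arrays 1, 2 and 3 it was -0.05, 0.04 and -0.06. The control arrays therefore held both extremes, with the swap arrays between them.

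For the 37 bright genes control array 1 exceeded control array 3 in 37 of 37, by a median of 0.30 on the log2 scale (1.23-fold). The SD over the control arrays was larger than that over the swap arrays in 35 of these 37 genes, with medians of 0.17 and 0.08, against 52.6% of the brightest 1820 genes. As the genes share the same 6 arrays, these counts describe 1 pattern and not 37 separate ones. Swap array 1, which scored next to control array 1 on the leading principal component, was the lowest of the 6 arrays for 13 genes and the highest for 0.

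**Figure D3:**
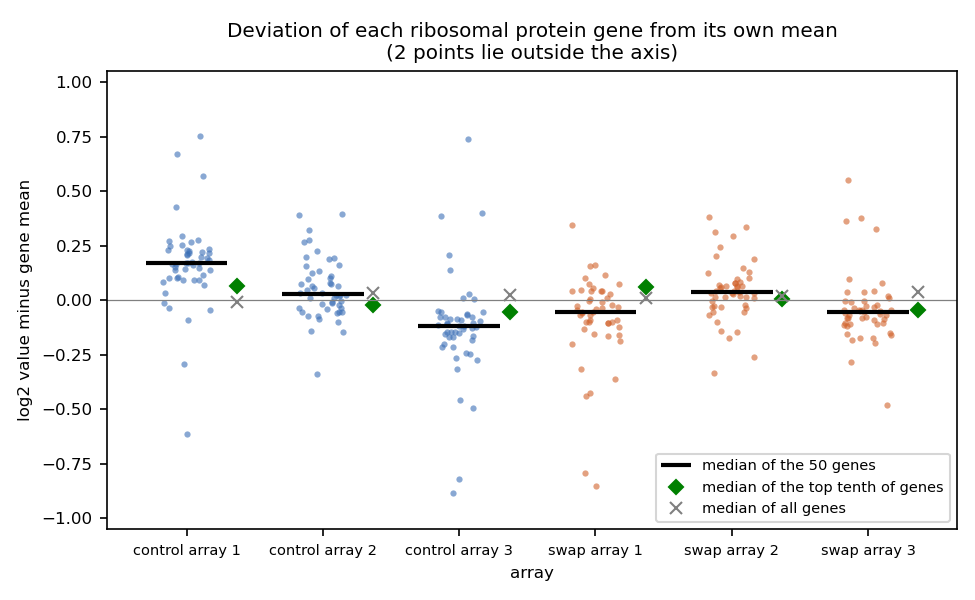
Log2 value minus the gene's mean over the 6 arrays (y axis) for the 50 genes on each array (x axis), controls in blue and swap in orange, with the median of the 50 (bar), of the brightest 1820 genes (diamond) and of all genes (cross); 2 points lie outside the axis. The bar is at 0.17 on control array 1 and -0.12 on control array 3, and the 3 swap bars lie between them.

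The correlation of a gene with the median profile of the other 49 over the 6 arrays was described by Pearson's r. Its median was 0.78, and 32 of 50 genes were above 0.7, against 12.1% of the other 1783 of the brightest genes and 6.17% of the 18143 other genes. All these values share the scaling of the arrays. The highest r were those of Rplp2 (0.99) and Rps19 (0.98), both bright, and the lowest those of Rps6 (-0.78) and Rpl39l (-0.55). These 4 were singled out with their values in view.

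How arrays were scaled changed the size of this pattern. After quantile normalization the median deviation was 0.07 on control array 1, -0.02 on control array 3 and -0.11 on swap array 1, so the lowest array was then swap array 1. With each array centred on its median it was 0.28, -0.24 and 0.05. Actb and Gapdh have control probe sets at both ends of the mRNA, and the 3′ log2 value less the 5′ one reads RNA quality. For Actb it was 2.67, 2.57 and 2.41 in the control and 2.92, 2.51 and 2.45 in the swap arrays. For Gapdh it was 1.35, 1.41 and 1.28 against 1.93, 1.23 and 1.35. Control array 1 was above control array 3 in both, and swap array 1 was the highest of all. The part of RNA quality in the ribosomal protein values was not tested.

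The balance of directions moved with single control arrays. Of the 50 genes 39 had lower and 11 higher means in the swap arrays, with a median difference of -0.05 (0.969-fold), against 49.1% lower among all genes and a median of 0.01. Without control array 1, 21 of 50 were lower and the median was 0.02. Without control array 3, 46 were lower and the median was -0.12. Centring each array on its median gave 29 lower of 50, and quantile normalization gave 35.

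Probe sets of the same gene could differ by far more than the genotypes did. Among the 24 genes with more than 1 probe set, 12 had probe sets whose mean levels were over 4 log2 units apart. Rps24, a small subunit protein mutated in some Diamond-Blackfan anaemia, had 4 probe sets between 14.37 and 14.62 and others at 8.14 and 5.53. Its bright probe sets gave differences from -0.13 to -0.06, and the dimmest gave 0.85 (SE 0.65). Rps3, a protein at the mRNA entry, had means of 13.93, 12.17 and 4.95 and differences of -0.03, 0.23 and 0.53.

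In Rpsa the second probe set, at 6.89, gave -0.80 (SE 1.17), with swap array 1 at 3.84 and the other 5 arrays from 6.66 to 8.08. Rps18 had differences from -0.16 to 0.35 and Rps20 from -0.06 to 0.35, with the higher end in both from a probe set at or below 8.65. Over the 70 probe sets with a mean of at least 12, differences ran from -0.39 to 0.23. Of the 50 chosen probe sets 14 (28%) carried the suffix by which the array maker marks probes that may also bind other transcripts (x_at), against 5.42% of all probe sets. Signal from pseudogenes and near-identical copies cannot be set apart in such probe sets, so their values are uncertain.

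**Figure D4:**
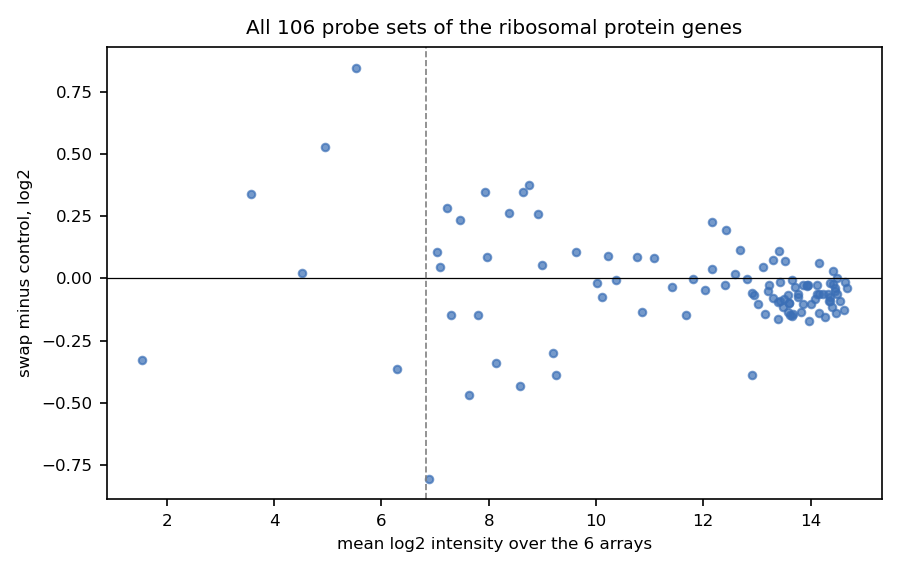
Swap minus control on the log2 scale (y axis) against the mean log2 intensity over the 6 arrays (x axis) for all 106 probe sets of the 50 genes, 1 point each, with the median level of all probe sets dashed. The 70 probe sets at 12 or more lie between -0.39 and 0.23, and the wider differences belong to dim probe sets.

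Other genes of the ribosome's production line gave the same count of 0 past limma's test. Fau, which encodes a small subunit protein fused to a ubiquitin-like one, was at 14.24, 14.11 and 13.81 in the control and 14.04, 14.06 and 13.94 in the swap arrays, again with control array 1 highest and control array 3 lowest. Its difference was -0.04 (SE 0.22), and 0.05 without control array 1. It was the 1 of 3 listed ribosome proteins outside the symbol rule that was measured. Of 20 translation factors and other TOP mRNAs 19 were measured, 9 higher and 10 lower, with a median difference of -0.02. The initiation factor subunits Eif3k and Eif3f had the smallest p, with differences of -0.21 (SE 0.21) and 0.19 (SE 0.22). Eif3k was the 1 of 19 whose groups did not overlap, against 8.85% of all genes.

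All 30 ribosome assembly genes were measured, 11 higher and 19 lower, with a median of -0.02. Nob1, the nuclease that finishes the RNA of the small subunit, was at 6.80, 7.05 and 4.74 in the control and 7.91, 7.70 and 7.63 in the swap arrays. It was the 1 of 30 whose groups did not overlap (8.85% of all genes), but the difference of 1.55 (SE 0.64) did not pass limma's test (adjusted p = 1.00) and was 0.82 without control array 3. Sbds, a factor of large subunit maturation, differed by 0.39 (SE 0.25).

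The 12 genes of RNA polymerase I and its factors, which make ribosomal RNA, had a median of -0.14, with 4 higher and 8 lower. Their smallest p belonged to Taf1b (-0.36, SE 0.25) and Taf1c (-0.33, SE 0.25). Rrn3 (-0.12, SE 0.20), named with its values in view, was the 1 of 12 whose groups did not overlap, against 8.85% of all genes. Of 15 mTOR and Myc regulators 14 were measured, with a median of -0.02. Tsc1, an inhibitor of mTOR signalling, differed by 0.30 (SE 0.23), and Myc, a driver of ribosome production, by -1.11 (SE 1.08). Myc was below the median level, and with 1 array left out its difference ran from -2.06 (without control array 1) to -0.39 (without swap array 3). Mycn of the same list, named with its values in view, had a mean of 11.50 and differed by -0.03 (SE 0.34). Of the 10 genes of the p53 response to ribosome defects 8 were measured, with a median of 0.03. The cell death gene Bbc3, also below the median level with a mean of 4.80, differed by 1.15 (SE 0.82), and with 1 array left out by 0.39 (without control array 2) to 1.62 (without control array 1). Sesn2, a stress-induced inhibitor of mTOR signalling, differed by -0.29 (SE 0.21). It was the 1 of these 8 whose groups did not overlap, against 8.85% of all genes.

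Mitochondrial ribosomes have their own proteins, of which 76 genes had a value, 28 with higher and 48 with lower swap means and a median of -0.03. The smallest p belonged to Mrpl32 (0.41, SE 0.21) and Mrpl36 (-0.40, SE 0.26). Mrpl32 was at 9.77, 9.49 and 9.75 in the control and 10.02, 10.12 and 10.11 in the swap arrays, without overlap. Mrpl22 (-0.35, SE 0.25) and Mrpl50 (-0.34, SE 0.23), named with their values in view, did not overlap in the other direction. That makes 3 of 76 genes, against 8.85% of all genes, and none of the 4 named passed the test.

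**Figure D5:**
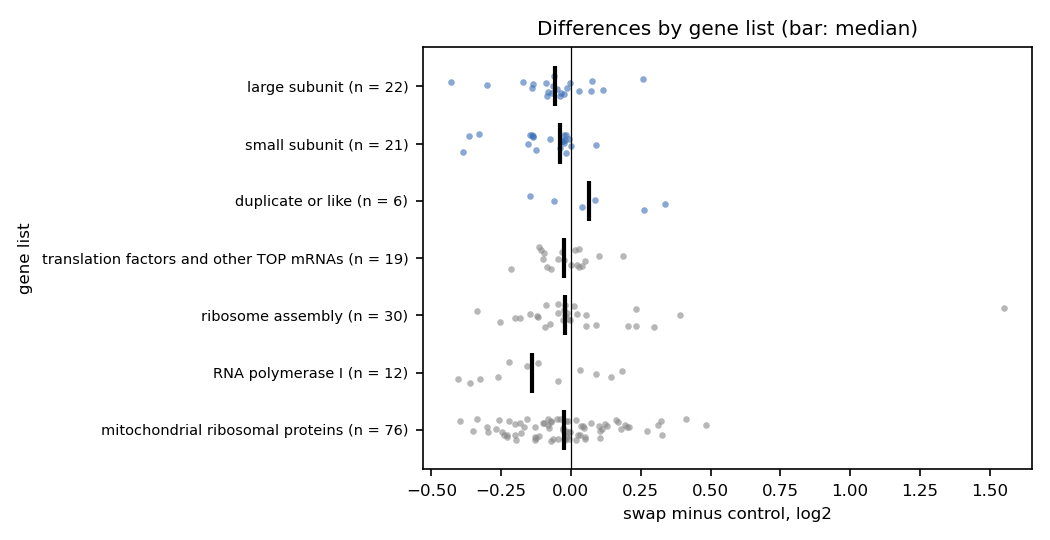
Swap minus control on the log2 scale (x axis) for the measured genes of each list (y axis), 1 point per gene, with the median as a bar; cytoplasmic ribosomal protein genes and their relatives are blue and other lists grey. The medians of all 7 lists lie between -0.14 and 0.06, and the outlying point in ribosome assembly is Nob1 at 1.55.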

How the data were processed

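The deposited table holds linear probe set intensity values, which the authors had scaled to a 2% trimmed mean of 500 on each of the 6 arrays, as the values show. The submitters' processing notes name the affy package. How background was removed and probes were summarised was not given in the sources used here. After 64 array control probe sets were taken out, log2 was taken of 45037 probe sets with no offset. Symbols were read from the platform annotation: 34945 probe sets had 1 symbol, 932 several and 9160 none. All 50 symbols matched RefSeq's gene table.

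Differences are swap minus control from limma 3.58.1 (lmFit, eBayes) in R 4.3.3, two-sided, adjusted by Benjamini-Hochberg over all probe sets, threshold 0.05. The number of arrays limits the precision. The series design calls the replicates independent, so p-values rest on the spread between pooled litters. limma combines each gene's own spread with a variance prior shared by all probe sets. For Rps28, with a residual SD of 0.059, the SE was 0.20. SEs, intervals and p-values of evenly bright genes therefore do not measure their own spread alone. The table has no detection calls or scan dates, so no batch was tested. Scripts were tested on simulated data.

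Genes and lists were chosen with earlier results of these data known. Named genes were Hoxb1, members fixed by role, 5 members per direction with the smallest p, the 5 whose probe sets differed most, and 2 per other list. Of the members fixed by role, those without a single-symbol probe set were not analysed here. Alternatives covered the replicate block, filtering, normalization, offset, variance prior, array weights, probe set choice, membership, threshold and left-out arrays.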

Additional observations from a re-analysis of the deposited data

How the results depend on the processing

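limma called 0 of the ribosomal protein genes and 0 probe sets under every alternative run, with a smallest adjusted p over all probe sets of 0.241 or more, and 0 of these genes had an unadjusted p under 0.05. Their median difference ran from -0.12 to 0.02 with 1 array left out and was 0.03 without both replicate 1 arrays. Genes whose groups did not overlap numbered 0 among the 43 core proteins, against 8.85% of all genes and 6.04% of the brightest 1820. With 1 array left out they numbered 1 to 15 of the 50. Without both replicate 1 arrays they were 7 of 50 (14%), against 31.1% of all genes and 26.1% of the brightest 1820. With 1 array left out the counts differed by array. They were 5 and 15 without control arrays 1 and 3 (20.4% and 18% of all genes) and 2, 6 and 3 without swap arrays 1, 2 and 3 (16.8%, 18% and 19.6%). The count with an interval within 1.5-fold, 16 of 50, was 37 of 47 with the filter at the median level, 28 with quantile normalization, 39 with a trended robust prior, 25 with array weights and 40 with the offset of 64. It was 0 with the replicate block, with median centring, without both replicate 1 arrays, and with any 1 array left out (0 to 0). The cause was not tested. The median deviation of control array 3 was -0.24 with median centring. These array deviations under other scalings, and members at or above the median level, were added after seeing the data.

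The replicate numbers were not taken to pair the samples, as the correlation of deviations from the group means was not over 0.1 for each number. It was 0.065, 0.018 and 0.057 for numbers 1, 2 and 3 over all probe sets and 0.23, 0.031 and 0.22 at or above the median level. Numbers 1 and 3 correlated best with their own number in both, and control array 2 with swap array 3. The control and swap array medians were also close for numbers 1 (118 and 118) and 3 (139 and 139), and less so for number 2 (130 and 122). Whether a number marks arrays processed together was not tested. With the replicate block limma called 0 genes, and 2323 probe sets had an unadjusted p under 0.05 against 2060 without it. Of 699 values of 44 named genes under the alternatives 628 kept their direction, 71 turned and 0 became called.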
